A study of Mus musculus with 2 samples.

Results

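Within the crystallin-rich cells of the newborn mouse lens epithelium, a small set of droplets carried far more RNA than the rest. Barcodes were taken as RNA-rich fiber-like when they held more than 20198 UMIs (unique molecular identifiers, each read as 1 captured transcript), at most 15% of UMIs from mitochondrial genes, and at least 1% of UMIs from Cryba2, Cryba4 and Crybb1 together. The limit of 20198 UMIs is the 97th percentile of all barcodes, and barcodes above it are commonly filtered out. The rule gave 415 barcodes, 187 from pool 1 and 228 from pool 2, out of 21739 in all. These were 1.91% of barcodes and held 6.79% of UMIs. The 2264 barcodes with the same crystallin share but 949 to 20198 UMIs (1293 and 971) are called comparison barcodes below.

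Both libraries were droplet RNA-seq of lens epithelium from wild-type C57BL/6N mouse pups at 2 days of age, each a pool of 4 to 8 pups with no treatment, so that every group below shares genotype, age and tissue. The lens capsule with its adhering epithelium was peeled from the fiber mass, which was left out, and the cells were dissociated and passed through a filter before loading. The libraries aimed at 10000 cells each and held 12314 and 9425 barcodes with medians of 6307 and 8050 UMIs. RNA-rich and comparison barcodes came from the same droplet runs, n = 2 pools, and 27 barcode sequences occurred in both pools, of which 0 were RNA-rich. A droplet can hold more than 1 cell, and doublets were measured but not removed from the main comparison.

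Lens fiber cells arise from epithelial cells that leave the cell cycle near the lens equator, elongate, and fill with crystallins, the soluble proteins that give the lens its refractive power. Alpha crystallins also act as chaperones, while beta and gamma crystallins form a related superfamily. Maturing fibers further build a beaded filament cytoskeleton, load their membranes with the water channel MIP and the membrane protein LIM2, and later lose nucleus and organelles.

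RNA-rich barcodes were chosen by their UMI total, mitochondrial share and crystallin share, and these values are given as a description. RNA-rich barcodes had medians of 24390 and 24154 UMIs in pools 1 and 2, with maxima of 89587 and 152147, against 12257 and 13477 in comparison barcodes. The 3 crystallins together made up a median of 4.39% and 4.16% of UMIs in RNA-rich barcodes, against 2.57% and 2.30% in comparison barcodes, and the range within the RNA-rich set ran from 1.02% to 16.2%. All 653 barcodes over the UMI limit passed the mitochondrial limit, and 65.4% and 62.1% of them passed the crystallin share. Near the UMI limit, the 45 and 59 RNA-rich barcodes below 22000 UMIs had median shares of 4.48% and 4.13%, and the 99 and 106 comparison barcodes above 18000 had 4.27% and 3.33%. Near the share limit, 2 and 9 RNA-rich barcodes lay between 1% and 1.2%, while 7 and 5 barcodes over the UMI limit fell just short, at 0.8% to 1%. The plot of UMIs against crystallin share shows no gap at either limit.

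**Figure D1:**
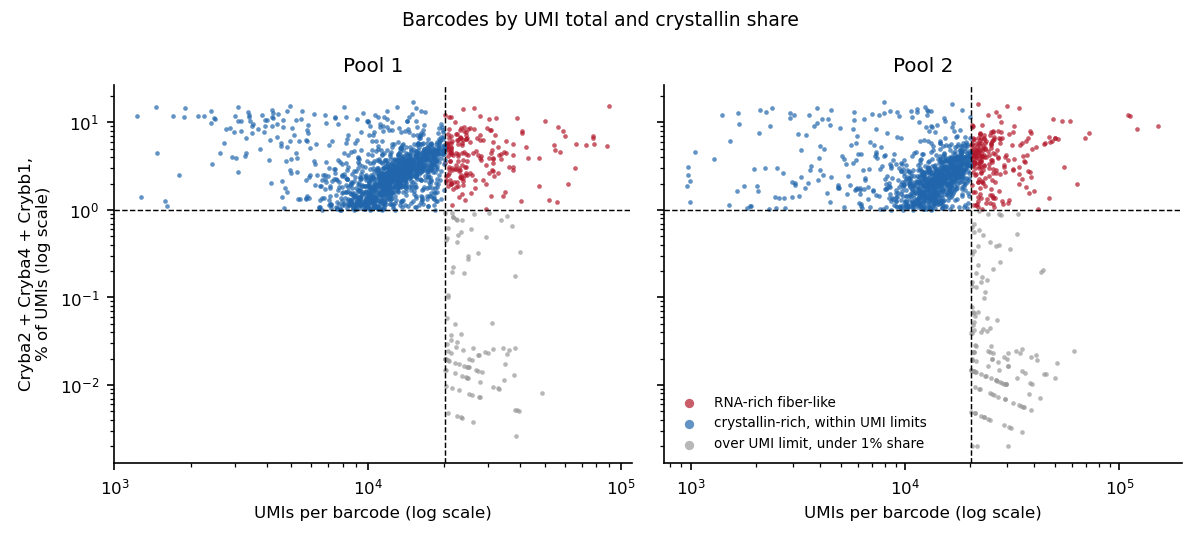
Each point is 1 barcode, with its UMIs (log scale) against the percentage of UMIs from Cryba2, Cryba4 and Crybb1 (log scale), for RNA-rich fiber-like barcodes, comparison barcodes and barcodes over the UMI limit with a share under 1%; dashed lines mark 20198 UMIs and 1%. The RNA-rich barcodes continue the upper end of the crystallin-rich cloud, and 17 and 12 of them exceed 50000 UMIs.

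Of the 6 fiber markers, Cryba2, Cryba4 and Crybb1 were used by the rule, so the label was checked on Crygs, Mip and Lim2. Crygs, a gamma crystallin of secondary fibers, was at 2701 and 2156 CPM (UMIs of a gene scaled to a common total for each group and pool) in RNA-rich barcodes, 2031 and 1522 CPM in comparison barcodes, and 528 and 431 CPM in barcodes within the UMI limits that fell under the 1% share. Lim2 was at 1824 and 1909, 1616 and 1518, and 389 and 401 CPM in the same 3 groups. Pax6, a transcription factor that is high in lens epithelium, was at 135 and 118 CPM in RNA-rich barcodes, against 361 and 324 CPM in the crystallin-poor ones. Foxe3, which marks lens epithelial cells, was at 0.537 and 0.604 CPM against 4.13 and 5.68 CPM. Fiber markers outside the rule were thus higher, and these epithelial markers lower, than in crystallin-poor barcodes, and a minority of RNA-rich barcodes also held RNA of other kinds, described further on.

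Since the rule chose RNA-rich barcodes by their UMI total, more UMIs per gene were fixed in advance, and the values per barcode describe only how the excess was spread. Of the 11417 genes tested, 11129 had more UMIs per RNA-rich barcode than per comparison barcode in both pools, and 16 had fewer in both. The median ratio over genes was 2.23 in pool 1 and 1.97 in pool 2, below the ratio of mean totals, which was 2.45 and 2.25. Crybb2 (ENSMUSG00000042240.14, chr5:113058258-113070117, minus strand, GRCm38), a major beta crystallin, averaged 154.6 and 154.5 UMIs per RNA-rich barcode against 38.9 and 31.1 per comparison barcode, ratios of 3.97 and 4.97. At the other end, the transcription factor gene Atf3 averaged 4.03 and 4.61 UMIs against 4.06 and 5.31, so its count per barcode did not grow with the total. All further levels are relative to the total of the group, and a lower relative level can go with more molecules per barcode.

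The UMIs of each group were summed per pool and compared by edgeR's quasi-likelihood test with TMM scaling, the pool as a block and Benjamini-Hochberg adjustment at 0.05. By this test 859 genes (7.52%) were higher in RNA-rich barcodes and 741 (6.49%) were lower, and 1589 of these 1600 had the same direction in both pools. A change of at least 2-fold was seen in 324 genes that were higher and 33 that were lower, and the median over all genes was -0.03 on the log2 scale. Of the 741 lower genes, 692 still had more UMIs per barcode in RNA-rich barcodes in both pools. Without TMM factors, which shifts the median gene by -0.14 to the lower side, 508 genes (4.45%) were higher and 2382 (20.9%) lower. DESeq2 called 155 (1.38%) higher and 35 (0.313%) lower of 11195 genes, and edgeR with no replicate block called 340 (2.98%) and 87 (0.762%). The p-values rest on 2 pools and on a spread estimated over genes together, so a gene's own disagreement between pools hardly enters them. Rgs5 and Cryga, whose pools ran opposite ways, still passed, at edgeR adjusted p = 9.9e-09 and 0.00042.

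Every crystallin that passed the filter on low counts was higher in RNA-rich barcodes except Crygf, at adjusted p = 0.67. Of the 3 beta crystallins the rule did not use, 3 rose, with a median log2 fold change of 0.66, and of 8 gamma crystallins 7 rose, with a median of 0.59, against -0.03 for all genes. These genes are part of the same program as the 3 crystallins of the rule, and so are not independent of the higher crystallin share. Crybb2 was at 5338 and 5672 TMM-scaled CPM in RNA-rich barcodes, against 3060 and 2283 in comparison barcodes, a log2 fold change of 1.06 (SE 0.04, edgeR adjusted p = 4.3e-129). The pool sums of the groups did not overlap, and Crybb2 had the largest change of the crystallins that the rule did not use. Cryba1 reached 45664 and 46756 scaled CPM against 30994 and 27464, a log2 fold change of 0.66. Crybb3 reached 73380 and 76619 against 57040 and 51070, a log2 fold change of 0.47. Both pools of RNA-rich barcodes were above both pools of comparison barcodes for these beta crystallins.

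Among gamma crystallins, which accumulate in fibers, Crygd was at 1269 and 1166 scaled CPM in RNA-rich barcodes against 698 and 600 in comparison barcodes, a log2 fold change of 0.91 (SE 0.05, edgeR adjusted p = 4.4e-91). Cryge was at 3775 and 3762 against 2168 and 1999, and Crygn at 3466 and 3485 against 2402 and 2065. Crygc, Crygs and Crygb rose by 0.59, 0.59 and 0.52 on the log2 scale. Cryga rose by 0.30, but pool 1 ran the other way, at 66.5 scaled CPM in RNA-rich barcodes against 70.7, while pool 2 had 81.5 against 50.2. The alpha crystallins, which are also made in the lens epithelium, rose as well. Cryab, a small heat shock protein, was at 55316 and 59449 scaled CPM against 41884 and 40022 (log2 fold change 0.49), and Cryaa, the lens-restricted alpha crystallin, at 121323 and 123026 against 106105 and 94804 (log2 fold change 0.28). Near-identical gamma genes limit the split between them. Of the 511 windows of 90 bases in the last 600 bases of each transcript, 29.0% in Cryge, 25.8% in Crygb and in Crygc, 19.2% in Crygd and 16.2% in Crygf also occurred in another crystallin transcript, and reads there could be divided or lost.

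The half-site TGCTGA, to which MAF proteins of the lens are known to bind, occurs in the promoters of Cryba1 and Cryba4. Those of Crygd and Cryge lack it but hold a common stretch. The promoters of these 4 genes are shown. Each is the 250 bases before the RefSeq start on GRCm38.p6, on the minus strand, 5′ to 3′, at chr11:77725294-77725543 (Cryba1), chr5:112252519-112252768 (Cryba4), chr1:65063441-65063690 (Crygd) and chr1:65051164-65051413 (Cryge). Capitals mark TGCTGA in Cryba1 and Cryba4, and in Crygd and Cryge the longest run of bases that both hold.
Cryba1: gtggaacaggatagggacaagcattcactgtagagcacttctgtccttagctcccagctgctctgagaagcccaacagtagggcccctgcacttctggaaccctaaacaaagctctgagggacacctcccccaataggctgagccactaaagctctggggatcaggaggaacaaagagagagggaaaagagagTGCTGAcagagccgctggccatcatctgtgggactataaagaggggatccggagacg
Cryba4: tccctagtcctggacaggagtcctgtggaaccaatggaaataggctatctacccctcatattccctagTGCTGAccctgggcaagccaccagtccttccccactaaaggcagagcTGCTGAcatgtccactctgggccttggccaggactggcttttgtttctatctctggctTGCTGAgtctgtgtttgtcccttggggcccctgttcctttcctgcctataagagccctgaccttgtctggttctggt
Crygd: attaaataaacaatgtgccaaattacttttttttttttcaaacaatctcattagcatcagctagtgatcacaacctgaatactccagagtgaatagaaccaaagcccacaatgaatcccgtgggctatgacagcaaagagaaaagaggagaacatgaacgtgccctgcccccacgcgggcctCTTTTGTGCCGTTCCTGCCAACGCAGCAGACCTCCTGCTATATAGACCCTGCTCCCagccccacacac
Cryge: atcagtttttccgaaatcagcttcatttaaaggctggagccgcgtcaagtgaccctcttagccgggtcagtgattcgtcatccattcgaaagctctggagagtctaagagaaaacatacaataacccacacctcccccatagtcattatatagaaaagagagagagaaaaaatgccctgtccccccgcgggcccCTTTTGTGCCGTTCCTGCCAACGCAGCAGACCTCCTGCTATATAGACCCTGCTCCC
Cryba4, 1 of the 3 genes of the rule, holds TGCTGA 3 times, at -182, -135 and -77 from the start, and Cryba1 holds it once, at -57. Searched on both strands, TGCTGA was found in 10 of the 15 crystallin promoters matched (66.7%) and in 15.8% of all 27025 mouse promoters of this length. Crybb2, Crygd and Cryge, with the largest changes among the crystallins that the rule did not use, were among the 5 without it. Cryba2, Cryba4 and Crybb1 of the rule hold it. The heat shock element core GAANNTTC was in 0 of the 15 against 6.78% of all promoters, and TATAAA in 3 (20.0%) against 13.0%. The run shared by Crygd and Cryge is 56 bases long and starts at -68 and -56. A match describes the letters in this window only.

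Several cytoskeletal genes of the fiber were higher, and its membrane genes were divided. Bfsp1, which encodes the beaded filament protein filensin, was at 90.1 and 84.7 scaled CPM in RNA-rich barcodes against 48.6 and 40.6 in comparison barcodes, a log2 fold change of 0.97 (SE 0.07, edgeR adjusted p = 1.2e-38). It had a UMI in 81.3% and 78.9% of RNA-rich barcodes against 39.1% and 35.6% of comparison barcodes, a share that also rises with UMIs per barcode. Sptbn1, a membrane skeleton spectrin, was at 272 and 273 against 200 and 191. Of 13 cytoskeletal genes tested 6 rose and 1 fell, with a median of 0.34, while the summed list was level in plain CPM, at 8122 and 8237 in RNA-rich barcodes against 8351 and 8212 in comparison barcodes, and Bfsp2, the partner of Bfsp1 in the beaded filament, rose by 0.24. Of 15 membrane, channel and junction genes 5 rose and 5 fell, with a median of -0.09. Mip was at 1035 and 925 scaled CPM against 834 and 649, Lim2 at 1881 and 2037 against 1551 and 1438, and the cell adhesion gene Ncam1 at 54.3 and 47.3 against 35.3 and 35.1. On the other side, N-cadherin (Cdh2) fell by 0.28 and the sodium pump subunit gene Atp1b1 fell by 0.40 on the log2 scale. The rises of Ncam1, and of Stmn1 in the cytoskeletal list, changed direction when barcodes with vascular, blood or mitotic UMIs were left out.

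Outside these families, 10 increases were singled out as the largest among genes at 50 scaled CPM or more. Besides Crybb2, Bfsp1 and Crygd they held R3hdml, Hmgb2, Mest, Pgam2, Hist1h2bc, Ogn and Fabp5. Pgam2, the muscle form of the glycolytic enzyme phosphoglycerate mutase, was at 82.9 and 79.2 scaled CPM against 35.9 and 24.4, a log2 fold change of 1.43 (SE 0.08, edgeR adjusted p = 2e-71). The small matrix proteoglycan gene Ogn was at 173 and 166 against 94.3 and 62.8, a log2 fold change of 1.12. Fabp5, a fatty acid binding protein, was at 321 and 339 against 177 and 173, a log2 fold change of 0.92. In each of these genes both pools of RNA-rich barcodes lay above both pools of comparison barcodes, which the choice by size and shared direction made likely. Grifin, a lens galectin relative of fibers, rose by 0.40, and Hsf4, the heat shock factor of lens fibers, rose by 0.46.

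The 10 largest decreases among genes at 50 scaled CPM or more included Atf3, Epha5 and Nnat. Atf3 was at 139 and 169 scaled CPM in RNA-rich barcodes against 319 and 389 in comparison barcodes, a log2 fold change of -1.20 (SE 0.05, edgeR adjusted p = 1.9e-107). Epha5, an ephrin receptor, was at 72.2 and 69.7 against 129 and 128, a log2 fold change of -0.86. The imprinted gene Nnat was at 282 and 277 against 466 and 429, a log2 fold change of -0.68. The 2 pool sums of each group did not overlap in these genes, which the choice by size and shared direction made likely. Single barcodes did overlap: the middle 50% of RNA-rich barcodes held 0 to 145 and 0 to 164 CPM of Atf3, against 0 to 440 and 0 to 554 CPM in comparison barcodes. Ccdc80, a secreted matrix protein, was at 151 and 161 against 259 and 250, and Creb5, a transcription factor, at 24.9 and 32.4 against 52.2 and 57.3. The largest decreases further held Mid1ip1, Ypel2, Timp3 and Arid5b, at -0.74 to -0.68 on the log2 scale. Of the genes at 50 scaled CPM or more, the globin gene Hbb-bs fell the most, to 6.83 and 5.48 scaled CPM in RNA-rich barcodes against 8.39 and 235 in comparison barcodes, where 1 barcode of pool 2 held 5240 UMIs, or 98.5%, of the erythroid UMIs.

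Among regulators of fiber differentiation more genes fell than rose. Of 15 factors and RNA-binding proteins tested, 2 rose and 5 fell, with a median of -0.02. Rbm24, an RNA-binding protein needed for crystallin expression in the lens, was at 273 and 280 scaled CPM in RNA-rich barcodes against 391 and 390 in comparison barcodes, a log2 fold change of -0.50 (SE 0.05, edgeR adjusted p = 6.6e-22). The RNA-binding protein gene Celf1 fell by 0.42, Prox1 by 0.27 and Maf by 0.25, the last 2 being transcription factors of fiber elongation and crystallin transcription. Cdkn1c, the cell cycle inhibitor p57 that marks exit from the cycle at the equator, was at 5228 and 5703 against 6698 and 7137, a log2 fold change of -0.34 (SE 0.04, edgeR adjusted p = 5.3e-14). In the fit with no replicate block its adjusted p was 0.08. Of 12 Notch pathway genes 2 fell, the ligand gene Jag1 (-0.40) and the target gene Hey1 (-0.57), and 2 rose, the target gene Hes5 (0.55) and Mfng (2.75), a modifier of Notch receptors that stayed under 2 CPM. The FGF receptor and feedback list had 1 fall, that of Etv1, and 0 rises among 11 genes. Over all genes tested 7.52% were higher and 6.49% lower, and the FGF count lies near these shares.

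**Figure D2:**
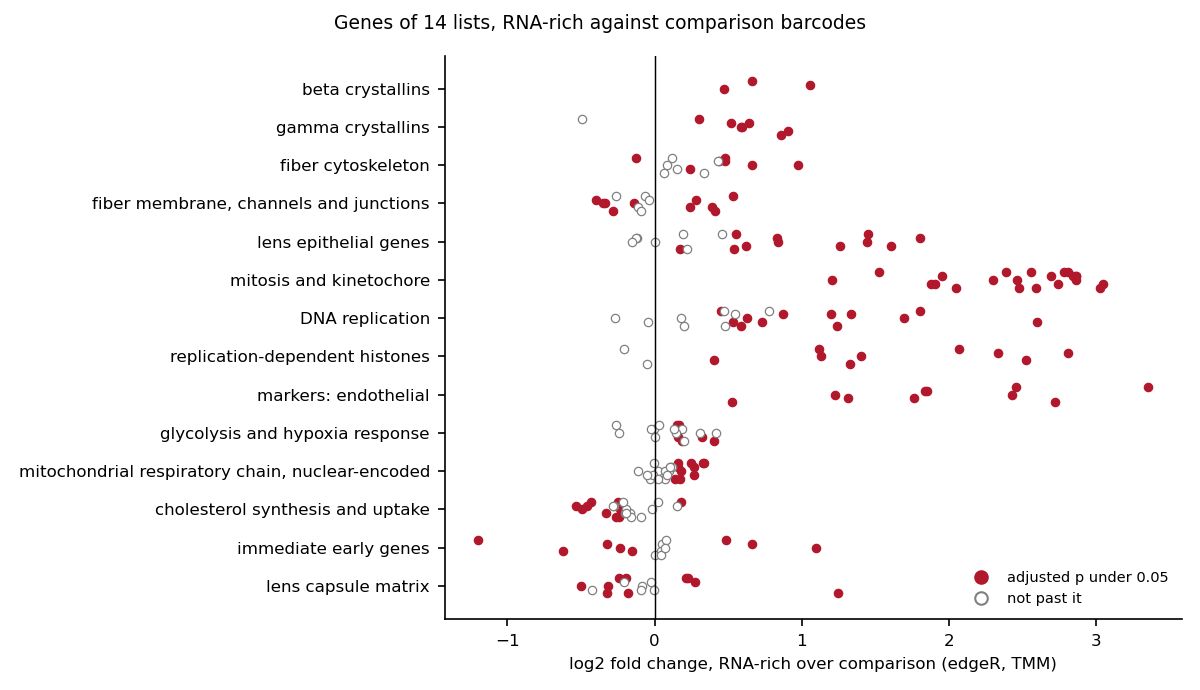
Each point is 1 gene of 14 lists, with its log2 fold change of RNA-rich over comparison barcodes (edgeR, TMM); filled points passed an adjusted p of 0.05 and open points did not. The crystallin, mitosis, histone and endothelial lists lie to the right, and cholesterol synthesis, at a median of -0.22, lies mostly to the left.

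Cholesterol synthesis genes were among the lower ones. Of 22 genes 9 fell and 1, Fdps, rose, with a median of -0.22. Cyp51, the sterol demethylase of the pathway, was at 66.7 and 75.9 scaled CPM in RNA-rich barcodes against 100.3 and 92.1 in comparison barcodes, a log2 fold change of -0.43 (SE 0.07, edgeR adjusted p = 1.1e-08). At matched crystallin share, a comparison described further on, 3 of the 22 were lower and 0 higher. By contrast 10 of 25 nuclear-encoded respiratory chain genes rose and 0 fell, led by Ndufb8 (0.34) and Cox5a (0.33), and 6 of 18 genes of glycolysis and the hypoxia response rose and 0 fell, among them Pgk1, at 163 and 157 against 127 and 115. The list medians were small, at 0.10 and 0.16, and both directions depended on the scaling. Without TMM factors 2 respiratory chain genes were higher and 5 lower, and 2 genes of glycolysis and the hypoxia response were higher and 2 lower. In that fit 4.45% of all genes were higher and 20.9% lower, against 7.52% and 6.49% in the main fit. Phgdh, the entry enzyme of serine synthesis, was at 195 and 179 against 133 and 135.

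Of 5 long noncoding RNAs of the nucleus 3 fell, and these falls were not stable across alternatives. Malat1, a nuclear long noncoding RNA, was at 23611 and 25025 scaled CPM in RNA-rich barcodes against 30472 and 27672 in comparison barcodes, a log2 fold change of -0.26 (SE 0.04, edgeR adjusted p = 3.5e-08). In molecules it was higher, at 684 and 682 UMIs per RNA-rich barcode against 388 and 377. Kcnq1ot1, the antisense RNA of the imprinted domain that includes Cdkn1c, was at 354 and 323 against 480 and 406 scaled CPM. Xist fell by 0.21, at 379 and 117 scaled CPM against 389 and 160. Its fall lay mostly in pool 2, at -0.45 on the log2 scale against -0.04 in pool 1. At matched crystallin share Kcnq1ot1 was at -0.08 (adjusted p = 0.56). The mitochondrial share had medians of 2.84% and 2.89% in RNA-rich barcodes against 3.54% and 3.71%. Malat1 fell short of the threshold under DESeq2 (adjusted p = 0.09) and with no replicate block (adjusted p = 0.30). It was at -0.08 without barcodes with RNA of other types or mitosis at 5000 UMIs and at 0.014 without any vascular, blood or mitotic UMIs, and across single RNA-rich barcodes it ran from 75.8 CPM upward, with medians of 24483 and 25961 CPM.

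Because RNA-rich barcodes had the higher crystallin share, the comparison was repeated with comparison barcodes drawn to match the share. Then 454 genes (4.34% of 10468) were higher and 139 (1.33%) lower. The crystallin differences shrank: Crybb2 had a log2 fold change of 0.39, Crygd 0.28, Cryba1 0.17 and Crybb3 0.10, and Mip (-0.07) and Lim2 (-0.02) no longer passed. Of the 7 gamma crystallins tested 4 were higher and 2 lower. Bfsp1 kept 0.33 of its 0.97, Pgam2 0.55 of 1.43 and Atf3 -0.62 of -1.20. Malat1 did not shrink, at -0.40, and Epha5 kept -0.74 of -0.86. Timp3 (-0.02) and Kcnq1ot1 (-0.08) no longer passed.

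Within ranges of crystallin share the same division was seen in plain CPM. The range of 4 to 8% was the most common among RNA-rich barcodes, with 41.7% and 46.1% of them, against 16.2% and 10.5% of comparison barcodes. At 1 to 2%, Crybb2 was at 1539 and 1603 CPM in RNA-rich barcodes against 1136 and 954, and at 8% or more at 10551 and 8393 against 10125 and 10184. Above a share of 8% the gamma genes were instead lower in RNA-rich barcodes. There Cryga was at 346 and 379 CPM against 1191 and 1232, Crygd at 3263 and 2855 against 4756 and 5236, and Mip at 1639 and 1323 against 2353 and 2089. The comparison barcodes in that range had median UMIs of only 6162 and 7957.5, against 26294.5 and 31103 in RNA-rich ones. Malat1 was lower in RNA-rich barcodes in all 4 ranges of both pools, for example at 20946 and 16263 CPM against 31988 and 35620 at 8% or more. Cdkn1c was lower below 8%, at 5924 and 6266 against 8375 and 8422 in the lowest range, but higher above 8%, at 2900 and 3495 against 2000 and 1702.

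**Figure D3:**
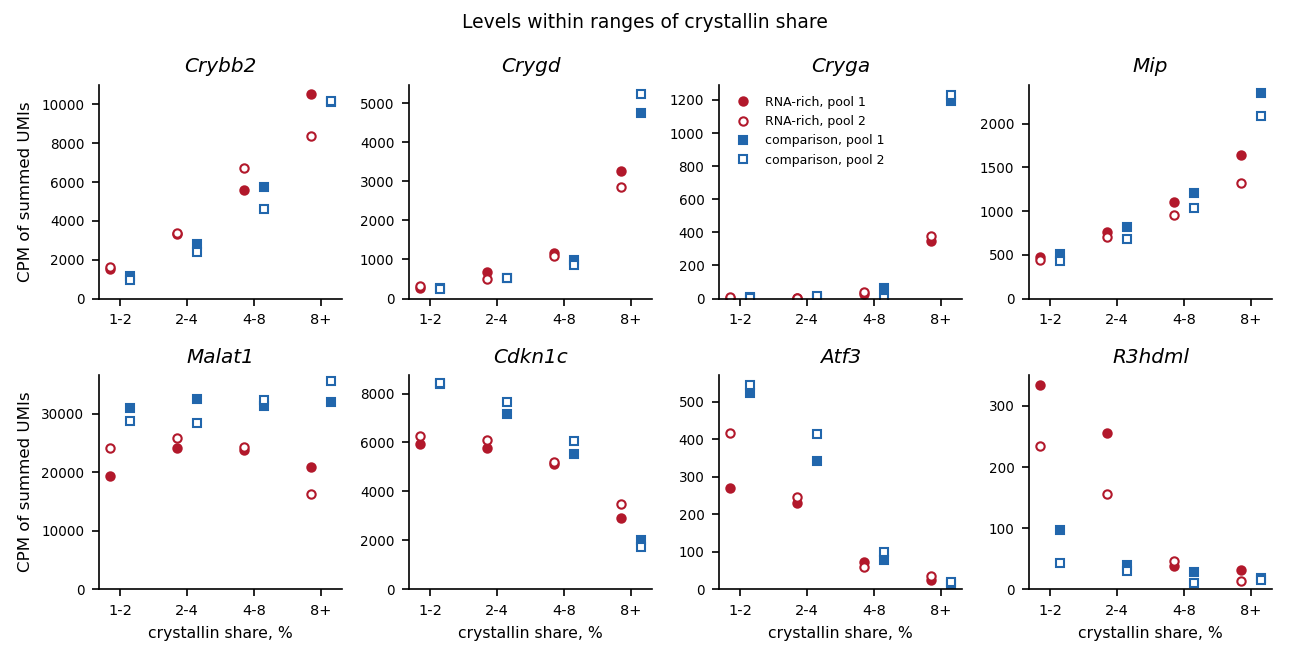
CPM of summed UMIs of 8 genes in 4 ranges of the Cryba2, Cryba4 and Crybb1 share, for RNA-rich (circles) and comparison barcodes (squares), with pool 1 filled and pool 2 open; no error is drawn, since each point is 1 sum. Cryga, Crygd and Mip of comparison barcodes exceed those of RNA-rich ones above 8%, and Malat1 of RNA-rich barcodes is the lower in every range.

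Along the UMI total, the crystallin-rich barcodes formed no simple series. The summed beta crystallins were at 229985 and 161662 CPM in the 75 and 72 barcodes from 949 to 4999 UMIs, at 115876 and 97741 CPM from 10000 to 14999, at 161397 and 155819 CPM in the first range over the limit, and at 189991 and 242124 CPM at 50000 UMIs or more. The lowest and highest ranges thus both had high crystallin, with the minimum between 5000 and 14999 UMIs. Atf3 was at 90.4 and 77.4 CPM in the highest range and at 426 and 486 CPM from 10000 to 14999. The 29 RNA-rich barcodes over 50000 UMIs held 20.2% and 14.6% of the RNA-rich UMIs and had median crystallin shares of 5.56% and 8.02%. Without them 654 genes (5.78%) were higher and 590 (5.21%) lower.

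**Figure D4:**
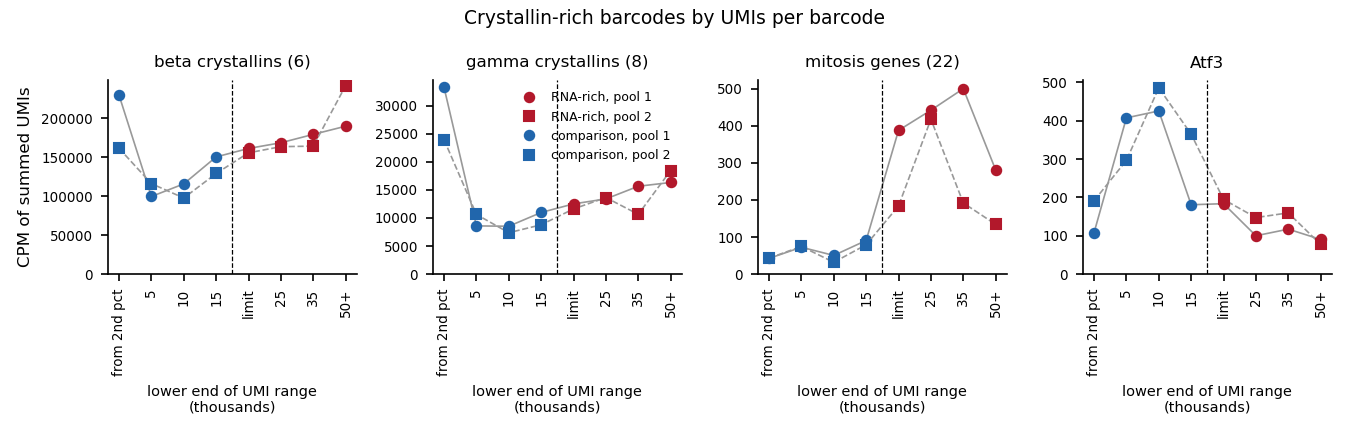
CPM of summed UMIs of the 6 beta crystallins (including those of the rule), 8 gamma crystallins, 22 mitosis genes and Atf3, in ranges of UMIs per barcode from the 2nd percentile (949) to 50000 or more, for RNA-rich and comparison barcodes of both pools; the dashed line marks the limit of 20198. Beta and gamma crystallins are high at both ends, and mitosis genes are high only in ranges over the limit, from 134 to 500 CPM.

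RNA-rich barcodes differed among themselves. Crybb2 ran from 230 to 20166 CPM in pool 1 and from 134 to 18705 CPM in pool 2, with medians of 4380 and 4136, and every barcode had it. Cryga was confined to few: 13.4% and 12.7% of RNA-rich barcodes had a UMI of it, against 5.10% and 4.02% of comparison barcodes, and 98.3% and 98.8% of its RNA-rich UMIs lay in the 10% of barcodes with the most. In comparison barcodes that value was 100% in both pools, since fewer than 10% of them had Cryga. Atf3 had medians of 34.1 and 36.0 CPM against 96.7 and 120 in comparison barcodes, but reached 2410 and 2011 CPM in single RNA-rich barcodes. Cdkn1c had medians of 5047 and 5239 CPM against 7132 and 7588.

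A minority of RNA-rich barcodes carried RNA of dividing cells. All 22 mitosis and kinetochore genes rose, with a median log2 fold change of 2.58. Ube2c, which drives the destruction of mitotic cyclins, was at 55.4 and 29.8 scaled CPM against 7.24 and 4.46 (log2 fold change 2.86), and Mki67, a proliferation marker, at 20.5 and 17.1 against 2.37 and 3.02 (log2 fold change 2.81). Of 20 replication genes 12 rose, among them Pclaf, at 32.3 and 33.2 against 6.39 and 4.31, and of 11 replication-dependent histones 9 rose, among them Hist1h1b, at 28.3 and 29.5 against 3.71 and 4.53. After every barcode was thinned to 5000 UMIs, 31 of 187 (16.6%, exact 95% interval 11.6 to 22.7) and 22 of 228 (9.65%, 6.15 to 14.2) RNA-rich barcodes had at least 3 mitosis UMIs, against 19 of 1218 (1.56%) and 17 of 899 (1.89%) comparison barcodes. Those 53 RNA-rich barcodes held 88.7% and 86.0% of the RNA-rich mitosis UMIs. Their median crystallin share was 2.52% and 1.69%, against 4.80% and 4.35% in the other RNA-rich barcodes. Comparison barcodes with at least 3 mitosis UMIs also had the lower share, 1.77% and 1.74% against 2.52% and 2.30%. By range of crystallin share, the summed mitosis genes were at 1257 and 1031 CPM against 124 and 85.9 at 1 to 2%, but at 15.4 and 6.98 against 26.5 and 25.5 at 8% or more. Intervals cover counting error only.

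Epithelial genes were higher in sum but not in the typical barcode. Of 18 lens epithelial genes 11 rose and 0 fell, with a median of 0.55, and 10 were higher and 2 lower without TMM factors. Per barcode, the median of the summed list was lower in RNA-rich barcodes, at 881 and 809 CPM against 936 and 872 CPM in comparison barcodes. The 10% of barcodes with the most held 31.2% and 30.8% of its RNA-rich UMIs, against 30.0% and 26.5% in comparison barcodes. R3hdml was at 141 and 105 scaled CPM in RNA-rich barcodes against 51.9 and 29.8 in comparison barcodes, a log2 fold change of 1.61 (SE 0.07, edgeR adjusted p = 4.1e-115). Slc7a11, the cystine transporter, was at 33.2 and 21.3 against 11.6 and 8.31, and the neurotrophic factor gene Cntf at 21.4 and 13.9 against 8.39 and 6.27. Pax6 (-0.12) and E-cadherin (Cdh1, 0.01) did not pass. In RNA-rich barcodes with at least 3 mitosis UMIs the epithelial markers summed to medians of 1231 and 1275 CPM, against 245 and 219 CPM in the other RNA-rich barcodes. Comparison barcodes showed the same split, at 1428 and 1248 CPM against 325 and 299 CPM. Mest, an imprinted gene, was at 75.3 and 56.5 scaled CPM against 26.1 and 22.2, and Hmgb2, a chromatin protein of dividing cells, at 122 and 112 against 35.4 and 46.8. The 10% of barcodes with the most held 61.5% and 74.3% of RNA-rich Hmgb2 UMIs, against 60.8% and 58.5% in comparison barcodes.

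Vascular RNA was plentiful in few RNA-rich barcodes and present at a low level in many. All 10 endothelial markers tested rose, with a median of 1.85, among them Egfl7 at 39.9 and 45.9 scaled CPM against 30.7 and 29.0. Yet at 5000 UMIs, 3 RNA-rich barcodes in each pool (1.60% and 1.32%) had at least 3 endothelial UMIs, against 6 (0.493%) and 4 (0.445%) comparison barcodes, and these held 57.0% and 70.7% of the RNA-rich endothelial UMIs. At least 1 endothelial UMI was found in 15.5% and 18.0% of RNA-rich barcodes against 18.7% and 17.0% of comparison barcodes, and without thinning in 57.2% and 60.1% against 36.5% and 37.5%. The endothelial markers summed to 88.6 and 114 CPM in RNA-rich barcodes and 52.2 and 44.2 CPM in comparison barcodes, and the mural markers to 139 and 71.7 against 65.9 and 91.4, higher in RNA-rich barcodes of pool 1 only. Of 6 mural markers tested 4 rose, but Rgs5, a pericyte marker, ran opposite ways, at 39.0 and 7.25 scaled CPM in RNA-rich barcodes against 11.1 and 13.7. Other types were near 0: the 10 macrophage markers summed to 0.358 and 1.66 CPM in RNA-rich barcodes against 7.16 and 1.44 CPM in comparison barcodes, the cornea markers to 0.179 and 0.151 against 0.317 and 0.160 CPM, and the retina markers to 1.07 and 0.905 against 1.08 and 0.878 CPM. Of these lists, Csf1r (macrophages), Krt14 and Krt12 (corneal epithelium) and Crx (photoreceptors) had 0 UMIs in RNA-rich barcodes. The sums came from other members of each list.

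Barcodes over the UMI limit with a low crystallin share were unlike these. Of those 238, 71.7% and 65.5% had at least 3 mitosis UMIs and 51.5% and 44.6% had at least 3 endothelial UMIs at 5000 UMIs. The corresponding exact intervals did not overlap those of the RNA-rich fiber-like barcodes in either pool.

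UMIs of Xist and of Y-linked genes were found in both pools, and a droplet with cells of a female and a male pup can show both Xist and Y-linked UMIs. At 5000 UMIs this was seen in 4 (2.14%) and 2 (0.877%) RNA-rich barcodes, against 25 (2.05%) and 7 (0.779%) comparison barcodes. The intervals of the groups overlapped in both pools, which with so few barcodes cannot show that the shares are equal. Without thinning the shares were 20.3% and 8.77% against 4.80% and 1.96%. At 10000 UMIs they were 15 (8.02%) and 7 (3.07%) against 43 (4.51%) and 7 (0.908%), higher in RNA-rich barcodes of both pools, with intervals that still overlapped. At least 2 UMIs of each were found at that depth in 6 (3.21%, 1.19 to 6.85) and 1 (0.439%) RNA-rich barcodes against 4 (0.419%, 0.114 to 1.07) and 2 (0.259%) comparison barcodes, apart in pool 1 and overlapping in pool 2. Scrublet, which scores likeness to simulated doublets, placed 31.6% and 23.2% of RNA-rich barcodes in the top 8% of its scores, against 6.96% and 6.39% of comparison barcodes. A pair of cells of the same type and sex in 1 droplet cannot be told apart from 1 large cell by these measures.

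**Figure D5:**
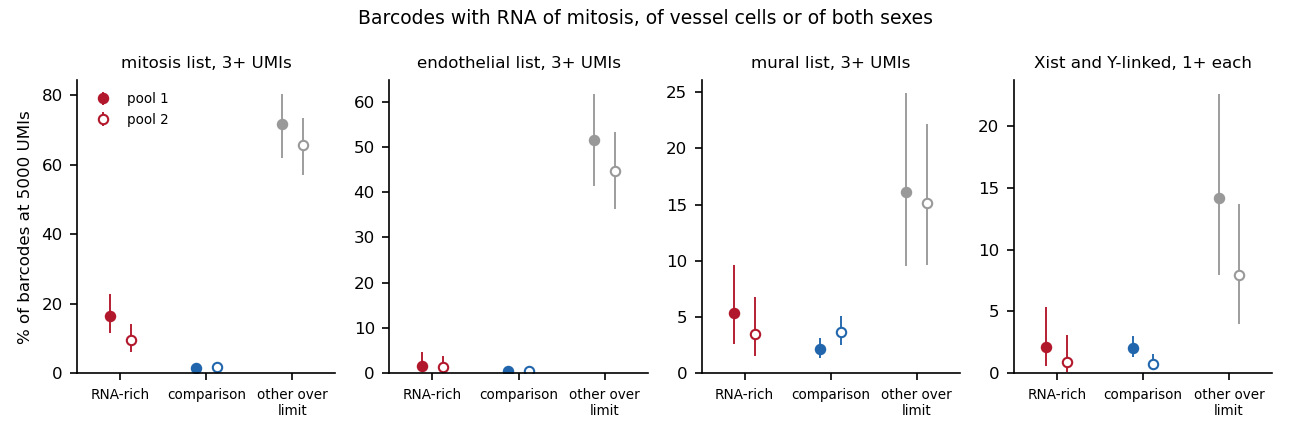
Percentage of barcodes with at least 3 UMIs of the mitosis, endothelial or mural list, or at least 1 Xist and 1 Y-linked UMI, after thinning to 5000 UMIs, in RNA-rich barcodes, comparison barcodes and other barcodes over the limit, for pool 1 (filled) and pool 2 (open) with exact 95% binomial intervals. The mitosis share of RNA-rich barcodes (16.6% and 9.65%) lies above that of comparison barcodes. Intervals of the shares with RNA of both sexes overlap, but few barcodes showed such RNA at this depth. Equal shares cannot be read from this overlap.

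Without barcodes that held at least 3 UMIs of the mitosis or 4 vascular and blood lists at 5000 UMIs, which were 21.4% and 13.6% of RNA-rich and 4.02% and 5.90% of comparison barcodes, 791 genes (7.21%) were higher and 661 (6.02%) lower. The crystallin differences were larger, at 1.31 for Crybb2, 1.26 for Crygd and 0.90 for Cryba1 on the log2 scale, and Bfsp1 was at 1.24 and Atf3 at -1.19. In the mitosis list 3 of 13 genes and in the endothelial list 0 of 3 were called higher, while 10 epithelial genes were higher and 2 lower. Hmgb2 no longer passed, at 0.19, and Malat1 neither, at -0.08. Without the top 8% of Scrublet scores, 877 genes (8.11%) were higher and 669 (6.18%) lower, Crybb2 was at 1.40, Atf3 at -1.34, R3hdml at 0.71 and Hmgb2 at -0.15.

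RNA-rich barcodes held more genes, with medians of 4086 and 3907 against 2800 and 2979, but fewer at equal depth. At 5000 UMIs the medians were 1497 and 1443.5 genes in RNA-rich barcodes, against 1590.5 and 1602 in comparison barcodes, lower by 93.5 and 158.5. The summed alpha crystallins took 171280 and 170984 CPM of RNA-rich UMIs against 154254 and 142362, and the 6 beta crystallins 171212 and 172053 against 127561 and 114473.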

How the data were processed

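The deposited files held raw UMI counts per gene and barcode, which the authors made with Cell Ranger on mm10 from 10x 3′ libraries of 2 pools (12314 and 9425 barcodes called as cells). No column was left unused. Classes were set in Python 3.11.15 (NumPy 2.4.6, SciPy 1.17.1, pandas 2.3.3), and UMIs were summed per pool and class. The sums went into edgeR 4.0.16 under R 4.3.3 (TMM scaling, default filter on low counts, pool as block, since both classes of a pool come from 1 library), with DESeq2 1.42.0 as an alternative. Cryba2, Cryba4 and Crybb1 were not tested. Thinning drew 5000 UMIs per barcode without replacement, leaving out 75 and 72 shallower comparison barcodes. Scrublet was run in scanpy 1.11.5. Intervals are exact binomial (95%) and cover counting error only.

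Alternatives were other limits, no TMM, no filter, no block, matched crystallin share, UMIs split at random so that 1 set chose barcodes and the other was tested, removal of barcodes with foreign or mitotic RNA, and each pool left out. On simulated sums with 200 of 11433 genes changed, edgeR recovered 82 of 100 at a log2 fold of 1 and 48 of 100 at 0.5, with 5 false calls, and DESeq2 46, 12 and 0. The simulated sums held no difference between pools and took their spread from the same fit. They therefore cannot show the false calls among genes whose pools or single barcodes differ. Named genes were the crystallins, the fiber markers and the 10 largest changes each way at 50 CPM that both pools shared in sign. From each list up to 3 members at 20 CPM were added, those with the largest changes in either direction. Where none passed, the members with the highest levels were taken. Bfsp2, Cdh2, Celf1, Prox1, Maf, Fdps, Pax6 and Cdh1 were named after their values were seen. Mfng, Gclm, Lamb1, Col4a1, Col4a2, Col4a5 and Col4a6 were also named outside these rules. Barcodes, lists and tests were chosen with earlier results of these data known. Gene positions are from GENCODE vM21 and promoters from RefSeq (GRCm38.p6), in which 15 of 16 crystallin genes were matched. Figures were drawn with matplotlib 3.10.9.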

Additional observations from a re-analysis of the deposited data

How the results depend on the processing

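The counts of 859 genes higher and 741 lower depended on the fit. They were 340 and 87 with no replicate block, 155 and 35 with DESeq2, 508 and 2382 with no TMM factors, 241 and 167 at a crystallin share of at least 2%, 454 and 139 at matched share, 367 and 119 at matched share with comparison barcodes from 10000 UMIs, 463 and 329 or 496 and 429 with split UMIs, and 122 and 94 without any vascular or blood UMI or 5 mitotic UMIs. Of the 103 named genes tested, 99 passed the threshold in the main fit. The verdict, passing in the same direction or not passing, was unchanged for 61 of 103 with no replicate block and 54 of 102 with DESeq2. It was unchanged for 58 of 100 at matched share and for all but 15 with either split. The median of the called beta and gamma crystallins, 0.62, ran from 0.52 to 0.76 with 1 pool left out. It was 0.80 against comparison barcodes from 10000 UMIs, 0.15 at matched share, 0.11 with both, 0.97 without the highest Scrublet scores, 0.97 without mixed barcodes at 5000 UMIs and 0.85 without any vascular, blood or mitotic UMIs. The difference in genes per barcode, -126 at 5000 UMIs (-158.5 to -93.5 by pool), was -192.5 at 10000 and 1107 unthinned. The difference in the share with RNA of other types or mitosis, 12.5 points (7.70 to 17.4 by pool), was 27.6 unthinned. That in the share with RNA of both sexes, 0.093 points (0.086 to 0.099), was 2.84 at 10000 UMIs and 11.2 unthinned.

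Single genes changed direction as follows, on the log2 scale. At matched share these were Cryga (-0.52), Crygb (-0.23), Mip (-0.072), Lim2 (-0.021), Lamc1 (0.027) and Hbb-bs (0.12), and with comparison barcodes from 10000 UMIs in addition Cryaa (-0.014), Crygb (-0.18), Mip (-0.083), Lim2 (-0.054), Lamc1 (0.12), Hba-a1 (0.16) and Hbb-bs (0.66). Without the highest Scrublet scores they were Hmgb2 (-0.15), Stmn1 (-0.38), Nr4a1 (-0.36), Acta2 (-0.31), Pcna (-0.15), Dut (-0.052) and Plaat3 (0.027). Without vascular, blood or mitotic UMIs they were Pcna (-1.09), Stmn1 (-0.91), Nr4a1 (-0.32), Dut (-0.28), Ncam1 (-0.21), Phgdh (-0.13), Hmgb2 (-0.093), Ctsl (-0.021), Malat1 (0.014) and Plaat3 (0.025). Without mixed barcodes at 5000 UMIs they were Rgs5 (-0.57), Stmn1 (-0.17) and Hbb-bs (0.030). Against comparison barcodes from 10000 UMIs alone Hba-a1 (0.74) and Hbb-bs (0.81) reversed, at a share of at least 2% Cryga (-0.054) and Hbb-bs (0.53), and above 25000 UMIs Cryga (-0.58) and Rgs5 (-0.64). With 1 pool left out, Cryga ran from -0.088 to 0.70 and Rgs5 from -0.90 to 1.79. The causes were not tested. The removal of barcodes over 50000 UMIs, the joint matching and the removal of mixed barcodes at 5000 UMIs were chosen after seeing the data. With 2 pools, differences within a pool's sampling error were not detectable, and genes of few UMIs are the least certain.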

Other observations

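Genes of the lens capsule, the basement membrane that lens cells secrete, changed in both directions. Of 16 genes 4 rose and 6 fell, with a median log2 fold change of -0.14 against -0.03 for all genes, of which 7.52% were higher and 6.49% lower. Among collagen IV chains, Col4a1 rose by 0.21 and Col4a2 rose by 0.27, while Col4a5 fell by 0.18 and Col4a6 fell by 0.20. The laminin genes Lama1, Lama5, Lamb1 and Lamc1 fell by 0.50, 0.33, 0.24 and 0.31. Lamc1 changed direction at matched crystallin share. Without TMM factors 1 gene of the list was higher and 10 lower, while 4.45% of all genes were higher and 20.9% lower.

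Of 18 glutathione and thioredoxin genes 2 rose and 5 fell. In the main fit, which gave this and the next list counts, 7.52% of all genes were higher and 6.49% lower. Gclc, the catalytic subunit of the enzyme that starts glutathione synthesis, fell by 0.43 and its partner Gclm fell by 0.31, and Txnrd1, a thioredoxin reductase, fell by 0.32, while Gstp1 rose by 0.40. Without TMM factors 1 of the 18 was higher and 9 lower. Of 16 proteasome genes 5 rose and 0 fell, among them Psmb5 (0.28) and Psmc4 (0.26), but without TMM factors 1 was higher and 3 lower. Over all genes 4.45% were higher and 20.9% lower without TMM factors. Of 14 immediate early genes 3 rose and 5 fell: besides Atf3, Zfp36, which destabilizes inflammatory mRNAs, was at 65.0 and 79.4 scaled CPM in RNA-rich barcodes against 89.2 and 134 in comparison barcodes. Genes for the loss of organelles and autophagy were nearly level, with 1 of 19 higher and 2 lower, near the shares over all genes.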
